A study of Mus musculus with 57 samples.

Results

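The retinoic acid system of the mouse embryo was followed through 10 genes of synthesis, breakdown, binding and reception: Aldh1a1, Aldh1a2, Aldh1a3, Cyp26a1, Cyp26b1, Crabp1, Crabp2, Rara, Rarb and Rarg. They were chosen by name, with earlier results of these data known, and all 10 were found among the 56860 gene rows of the raw count and TPM tables. Retinoic acid is made from retinal by the retinaldehyde dehydrogenases of the ALDH1A family and is oxidised to inactive products by the cytochrome P450 enzymes of the CYP26 family. Inside the cell it is bound by the cellular retinoic acid binding proteins CRABP1 and CRABP2, and in the nucleus by the receptors RARα, RARβ and RARγ, which act on DNA as partners of the RXR receptors. In the embryo it sets the anterior borders of Hox gene expression along the body axis, and it is needed for lung bud outgrowth and for a closed diaphragm.

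RNA-seq was performed on polyA RNA of wild-type (wt) and Hoxa5-/- embryos, all on the 129/Sv background, with 57 libraries in 7 contexts. Trachea, lung and diaphragm at E15.5 and lung at E12.5 had 4 wt and 4 Hoxa5-/- libraries each. The C3-T2 trunk segments, called somites here and cut free of neural tube, forelimb and thoracic organs, gave 4 wt and 3 Hoxa5-/- libraries at E10.5, and 4 per genotype at the later stage, E12.5. The brown fat between the shoulder blades (iBAT) was taken at E18.5, with 5 libraries per genotype. Both copies of Hoxa5 hold the Hoxa5tm1Rob allele in the Hoxa5-/- embryos, a neomycin cassette placed in the homeobox, which is a constitutive mutation present in every cell. Within a context, each library was made from the whole tissue of a separate embryo, with no sorting of cells. Whether different organs of E15.5 came from the same embryos is not stated in the sources used here. Hoxa5 itself was lower in the Hoxa5-/- libraries of all 7 contexts, by 1.89-fold in somites at E10.5 to 3.83-fold in iBAT, without overlap between the genotypes.

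The synthesis genes Aldh1a1 and Aldh1a3 lie on chromosome 19 at 20470079 to 20620829 and on chromosome 7 at 66040638 to 66077265, and Aldh1a2 lies on chromosome 9 at 71123071 to 71203525 (GRCm39). The breakdown gene Cyp26a1 is on chromosome 19 at 37686246 to 37689984 and Cyp26b1 on chromosome 6 at 84548396 to 84570890. Crabp1 is on chromosome 9 at 54672032 to 54680394 and Crabp2 on chromosome 3 at 87855973 to 87860683. The receptor genes are on chromosome 11 at 98818644 to 98865768 for Rara, on chromosome 14 at 5650540 to 6038924 for Rarb and on chromosome 15 at 102143373 to 102165952 for Rarg. All 10 are protein-coding, and the counts are of reads in their exons. Of the exon bases of Rarb, 1793 of 5265 are shared with Top2b, a DNA topoisomerase gene on the other strand, and 227 with Gm48162. The strand setting of the counting is not given in the sources used here, so reads of the overlapping genes cannot be told apart in those bases. Aldh1a7 is a close copy of Aldh1a1, and Aldh1a1 values are uncertain where reads fit both.

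The receptors bind a direct repeat of a half-site of 6 letters, and Rarb and Cyp26a1 are classical retinoic acid target genes. Pairs of such half-sites, spelled AGGTCA with its variants AGTTCA plus GGGTCA plus GGTTCA, with 5, 2 or 1 bases between them were searched on both strands, from 250 bases before to 50 after each RefSeq start (GRCm38.p6), for 8 of the 10 genes; Aldh1a3 and Crabp2 were not matched. The spacing of 5 was found at 32 of 32851 promoters (0.0974%), among them Rarb and Cyp26a1. Their repeats are spelled only with the variants AGTTCA and GGTTCA. The motifs were chosen with earlier results of these data known, so that share does not measure how unlikely these matches were. The spacing of 2 was found at 88 promoters (0.268%) and that of 1 at 73 (0.222%), none of them from these 8 genes. A match is a description of the letters and not of receptor binding, and the absence of a match says only that these letters are not in this window. Both stretches are shown because they carry the repeat, in capitals, upstream of the start; Rarb is read on the minus strand of GRCm38.p6 (chr14:16575477-16575569), and Cyp26a1 on the plus strand (chr19:37697736-37697807), where the repeat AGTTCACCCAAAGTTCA stands on the opposite strand.
Rarb: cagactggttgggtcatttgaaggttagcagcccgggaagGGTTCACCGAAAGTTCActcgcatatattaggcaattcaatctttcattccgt
Cyp26a1: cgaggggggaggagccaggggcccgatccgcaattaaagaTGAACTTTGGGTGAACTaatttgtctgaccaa
The repeat ends 37 bases upstream of the start in Rarb and 16 bases upstream in Cyp26a1.

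The libraries held 18369905 to 72991481 counted reads. Levels are given as TPM, transcript abundances scaled to the same sum in every library and corrected for gene length, so that genes may be compared with each other; the 32 respiratory libraries and the 25 somite and iBAT libraries were sequenced and tabulated separately, and levels set across them are descriptions only. In iBAT the median TPM of 12288 genes expressed everywhere was 12.9, against 25.9 to 32.3 in the other wt contexts, and the top 10 genes took 24% of all TPM. One library stood apart for RNA composition: in the Hoxa5-/- lung replicate 4 at E15.5 the ribosomal Rn18s-rs5 reached 196806 TPM against 4133 to 8515 in the other lungs of that stage, and its median TPM was 22 against 31.9 to 33.2. The wt somite replicate 3 at E10.5 also stood apart, with a median deviation from its group mean of 0.156 on the log2 scale over genes, against 0.0791 to 0.118 in the other 3 wt libraries. Tissue markers matched the labels, with skeletal muscle genes summing to 10520 to 28213 TPM in the diaphragm, lung epithelial genes to 1576 to 9335 TPM in lung at E15.5 and brown fat genes to 8292 to 13690 TPM in iBAT. Other tissue was also present: hepatocyte genes summed to 386 to 11729 TPM in the diaphragm, heart muscle genes to 1563 to 5715 TPM in the trachea and spinal cord genes to 710 to 1215 TPM in somites at E10.5, where Sox1, Pax6 and Olig2 were expressed.

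With a mean of at least 1 TPM in the wt libraries, all 10 genes were expressed in trachea, diaphragm and somites at E12.5, 9 in lung at E15.5, 8 in lung at E12.5 and in somites at E10.5, and 7 in iBAT. The 5 genes expressed in all 7 contexts were the 3 receptors and both binding proteins. Replicates were close: over the 62 wt groups of a member at 1 TPM or more, the coefficient of variation had a median of 17.1%, with a range of 2.59% to 60.9%.

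**Figure D1:**
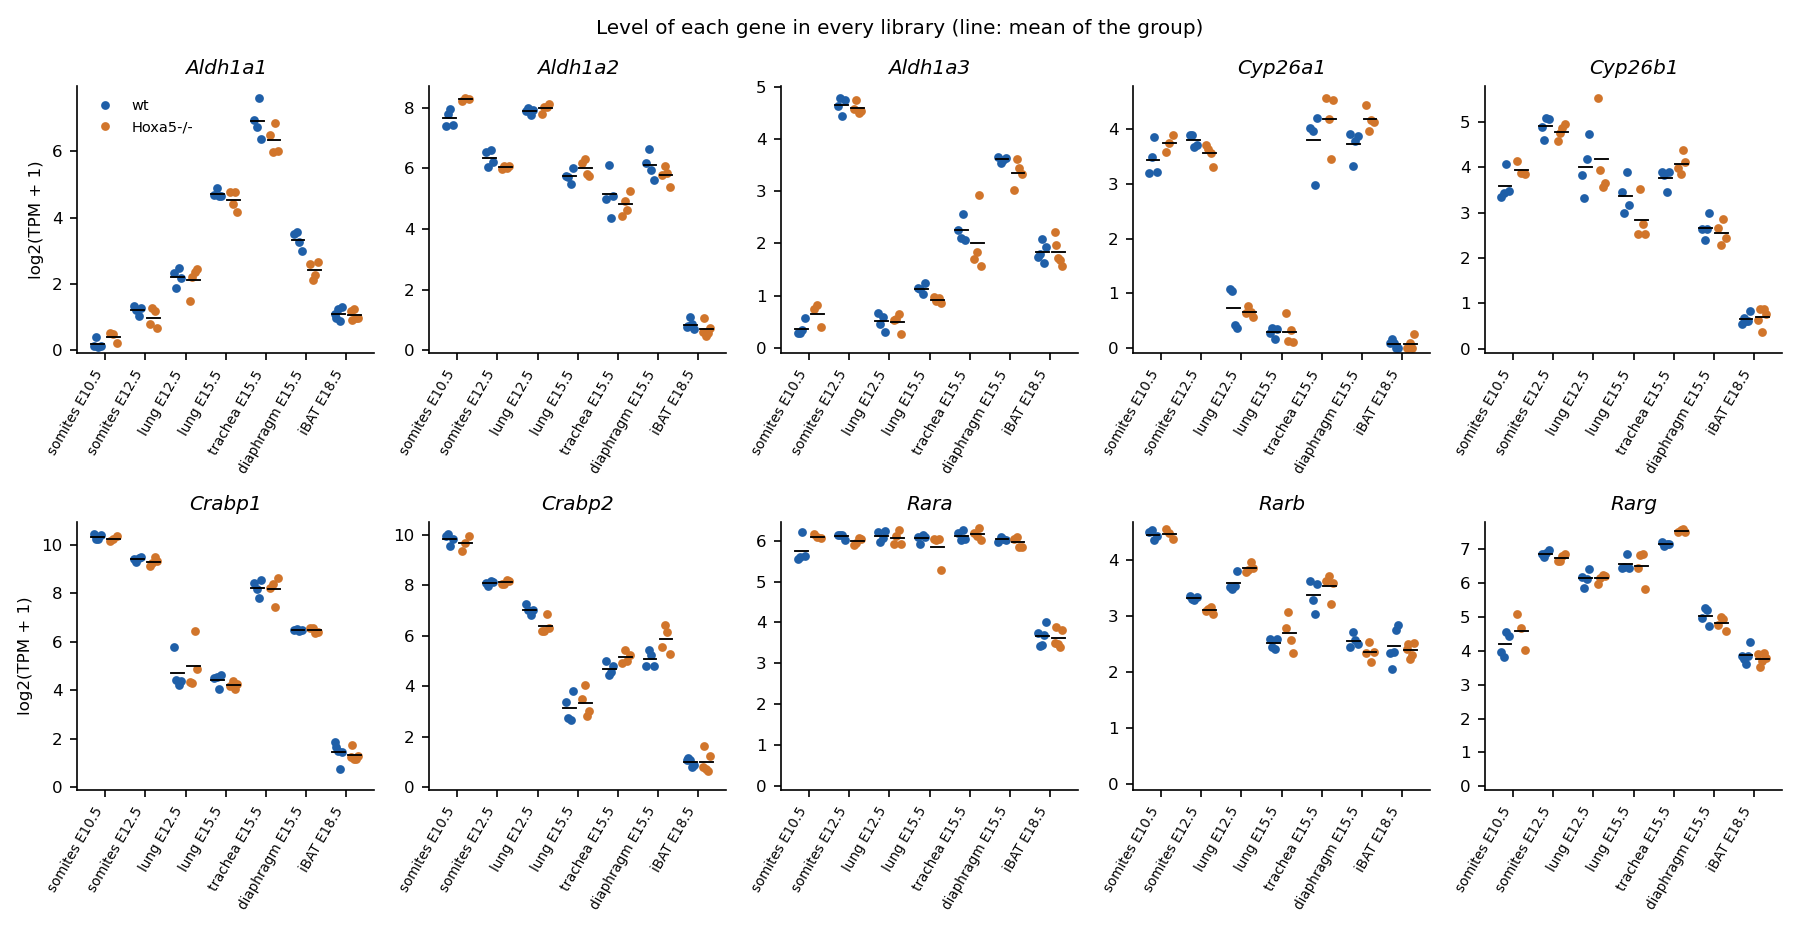
TPM level of each gene in every library on the log2(TPM + 1) scale, by context and genotype, with 1 point per library and a line at the group mean. Each panel has its own vertical axis from 0; Crabp1 and Crabp2 are highest in somites at E10.5 and lowest in iBAT, and the wt means of Rara stay between 53.6 and 69.0 TPM outside iBAT.

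Among the synthesis genes, Aldh1a2, the main retinoic acid producing enzyme of the early embryo, had the highest level in 5 of 7 contexts. Its wt level was 237 ± 16.2 TPM in lung at E12.5 (SD, n = 4) and 203 ± 39.2 in somites at E10.5 (n = 4), which overlapped, and 0.804 ± 0.206 in iBAT (n = 5). Between these ends, somites at E12.5, diaphragm, lung at E15.5 and trachea ran from 81.5 to 37.9 TPM, and each overlapped the next in order. Aldh1a1, which makes retinoic acid in several epithelia, was highest in the trachea at 126 ± 48.0 TPM (n = 4), followed by 25.5 ± 2.24 in lung at E15.5, 9.15 ± 1.76 in diaphragm and 3.71 ± 0.791 in lung at E12.5 (n = 4 each). Those 4 contexts did not overlap, and somites at E10.5 were lowest at 0.132 ± 0.117 TPM. Aldh1a3 had another order, with 24.2 ± 2.7 TPM in somites at E12.5 and 11.2 ± 0.390 in diaphragm (n = 4 each), and 0.429 in lung at E12.5 and 0.295 in somites at E10.5.

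The share of each gene in the summed TPM of its family places the members on a scale within each library, and its order over contexts was not that of the levels. Aldh1a2 made up 99.8% ± 0.0864 of the Aldh1a sum in somites at E10.5 and 98.3% ± 0.476 in lung at E12.5 (SD, n = 4). In the trachea Aldh1a1 took the larger share, 74.0% ± 12.4, and in iBAT Aldh1a3 did, 57.3% ± 1.34 (n = 5), of a sum of only 4.54 TPM. The Aldh1a1 share of the trachea was lowest in wt replicate 2, at 59.7%, where Aldh1a2 was 68.4 TPM against 19.5 to 32.9 in the other 3. The summed level of 7 mesothelial markers was also highest in that library, at 308 TPM against 95.8 to 233, and the part of the mesothelium in that value was not tested.

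**Figure D2:**
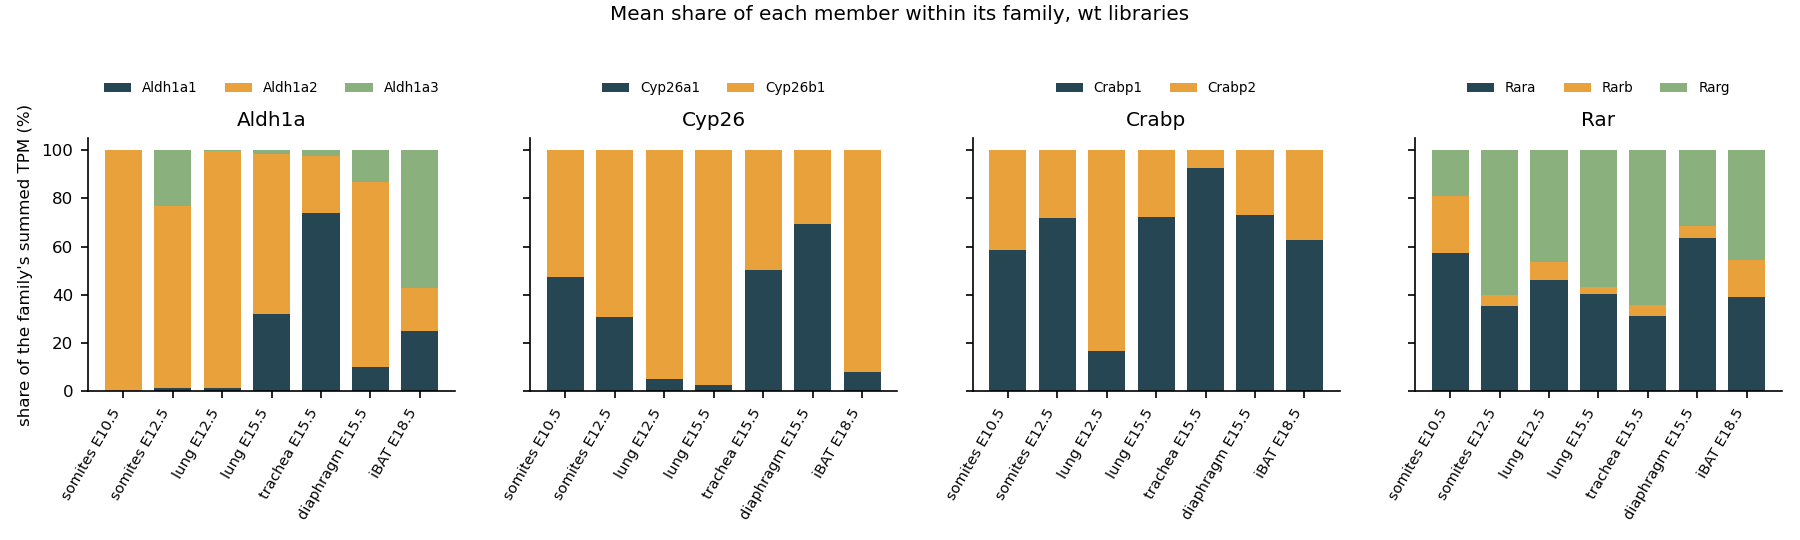
Mean share of each gene in the summed TPM of its family in wt libraries (bars, %), for the Aldh1a, Cyp26, Crabp and Rar families in 7 contexts. Aldh1a2 filled 99.8% of the Aldh1a bar in somites at E10.5, and Aldh1a1 74.0% in the trachea.

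Both breakdown genes were expressed in trachea, diaphragm and somites, Cyp26b1 alone in lung, and neither at 1 TPM in iBAT. Cyp26a1 stood at 13.6, 13, 12.4 and 10.1 TPM in trachea, somites at E12.5, diaphragm and somites at E10.5, which overlapped in that order, and at 0.695 TPM in lung at E12.5 and 0.219 TPM in lung at E15.5. In iBAT it had 0 to 2 reads in the 5 wt libraries and 0 to 3 in the 5 Hoxa5-/- libraries, and the limit that 3 counts set was 0.164 to 0.215 TPM. The mean of Cyp26b1 was above 5 TPM everywhere but in iBAT, from 29.3 ± 4.41 TPM in somites at E12.5 to 5.43 ± 1.14 in diaphragm (n = 4), and it made up 94.7% ± 4.60 of the Cyp26 sum in the lung of E12.5 and 97.5% ± 1.34 at E15.5. In the diaphragm the order was turned, and Cyp26a1 made up 69.5% ± 2.93. Rarb, which shares the promoter repeat with Cyp26a1, was expressed in the lung at 11.1 and 4.72 TPM, and the levels of both genes over all 57 libraries had a Pearson correlation of 0.35 on the log2(TPM + 1) scale, a description over libraries that share tissues and depth.

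The binding proteins reached the highest wt means of the 10 genes, in somites at E10.5, and varied widely. Between their highest and lowest contexts, means differed 711-fold for Crabp1 and 913-fold for Crabp2, against 959-fold for Aldh1a1. Crabp1 had 1394, 1229, 1208 and 1365 TPM in the 4 wt somite libraries at E10.5, 694, 636, 715 and 726 at E12.5, 308 ± 67.7 in trachea, 89.1 ± 2.37 in diaphragm and 1.83 ± 0.728 in iBAT. The first 4 of these contexts did not overlap. Crabp2 also peaked in somites at E10.5, with 980, 1032, 746 and 899 TPM, and was 130 ± 16.6 in lung at E12.5, where it made up 83.2% ± 6.16 of the Crabp sum. In the trachea the balance was the reverse, with Crabp1 at 92.4% ± 1.21.

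The receptors were the most even. Rara lay between 53.6 and 69.0 TPM in 6 contexts, each overlapping the next, and at 11.8 ± 2.17 in iBAT. Rarg ran from 142 ± 5.09 TPM in trachea and 116 ± 7.35 in somites at E12.5 to 17.7 ± 4.54 in somites at E10.5 and 13.7 ± 2.63 in iBAT, and its lowest 2 contexts overlapped. Rarb was the least abundant receptor in all contexts except somites at E10.5, where its 21 ± 1.18 TPM exceeded the mean of Rarg, with ranges that overlapped. Rarg was the larger part of the Rar sum in trachea, at 64.4% ± 1.01, and Rara in diaphragm, at 63.6% ± 3.08.

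In the following tests a gene is called when its adjusted p is below 0.05 and its fold change is at least 1.5, in edgeR's quasi-likelihood test over all genes that reached a mean of 1 TPM in either group. The wt lung was first compared between stages. From E12.5 to E15.5, 5 of the 9 members tested were called, 2 higher and 3 lower, where 24.6% of all genes tested were called, 15.4% higher and 9.15% lower; their median log2 fold change was -0.48 against -0.01 over all genes. Aldh1a2 had 235, 256, 216 and 240 TPM at E12.5 and 52.9, 51.5, 43.8 and 63.5 at E15.5. It fell by 2.2 on the log2 scale (SE 0.11, adjusted p = 6.2e-07 in edgeR), while Aldh1a1 rose from 2.68 to 4.53 TPM at E12.5 to 24.2 to 28.9 TPM at E15.5 (log2 fold change 2.76, SE 0.14, adjusted p = 6.8e-07). Aldh1a2 still made up 66.2% ± 3.77 of the family sum at E15.5, and the sum itself went from 241 to 79.7 TPM.

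Crabp2 had the largest fold change of the members in the lung. Its 152, 128, 112 and 127 TPM at E12.5 became 9.29, 5.61, 5.24 and 13.1 TPM at E15.5, 16.2-fold lower (adjusted p = 1.6e-06 in edgeR). Rarb fell 2.41-fold, from 11.1 ± 1.35 to 4.72 ± 0.373 TPM (adjusted p = 7.0e-06), with Top2b at 96.0 and 91.4 TPM at the same stages. Aldh1a3 rose 2.69-fold but stayed near 1 TPM. Rarg was higher at E15.5 by 0.38 on the log2 scale (adjusted p = 0.022), below the fold limit, and Rara and Crabp1 were not called (adjusted p = 0.26 and 0.27). Cyp26b1 had 13.1, 8.97, 17.2 and 25.5 TPM at E12.5 and 9.91, 6.93, 13.8 and 7.93 at E15.5, which overlapped (adjusted p = 0.051); it was called without wt replicate 2 at E12.5 or without wt replicate 3 at E15.5 (adjusted p = 0.015 and 0.016). In whole tissue, fewer cells of a type and less RNA per cell cannot be told apart, and lung epithelial markers went from 230 to 275 TPM at E12.5 to 3199 to 9243 TPM at E15.5.

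**Figure D3:**
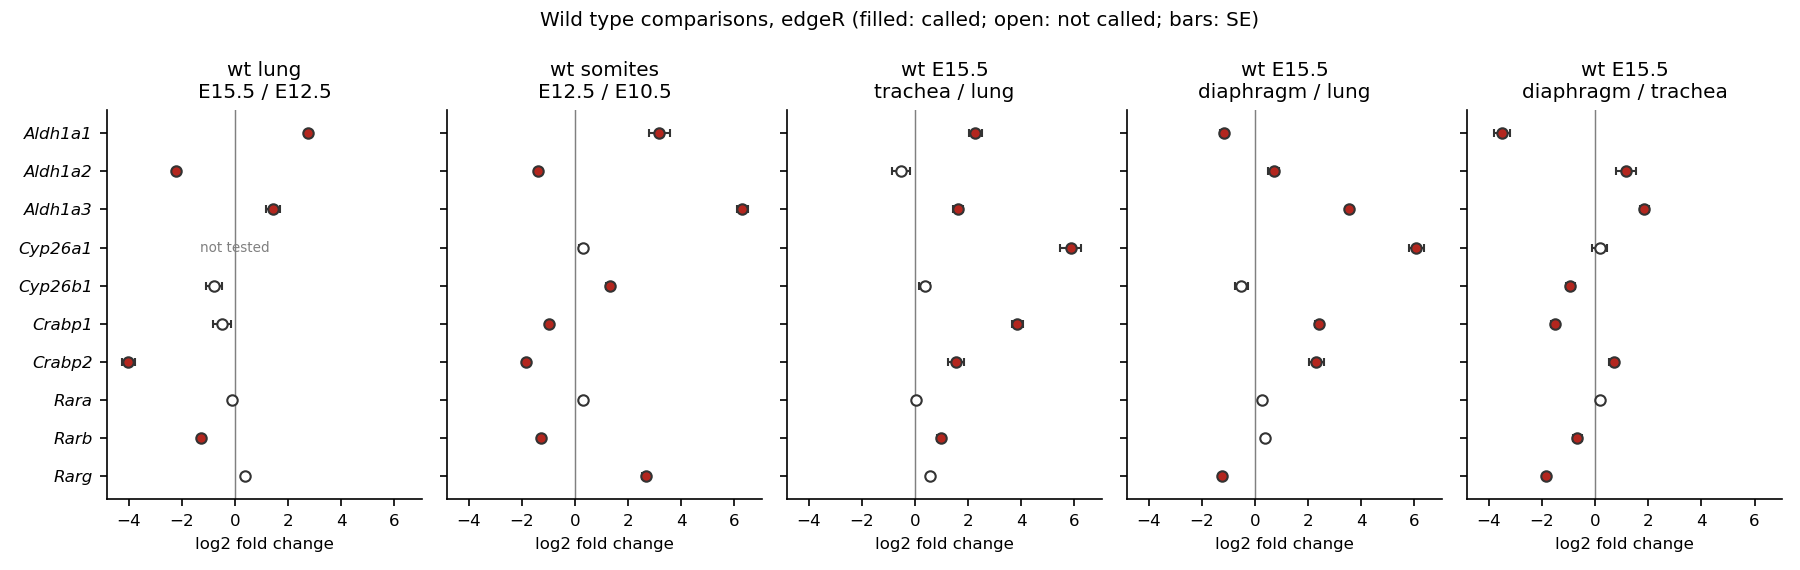
log2 fold change of each gene between stages of lung and somites and between organs at E15.5 in wt embryos, edgeR estimate with its standard error as a bar; filled points are called and open points are not. Aldh1a2, Crabp2 and Rarb are to the left of 0 and Aldh1a1 and Aldh1a3 to the right in both stage comparisons.

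Between E10.5 and E12.5 the wt somites had 8 of 10 members called, 4 higher and 4 lower, where 42.6% of all genes tested were called, 24.1% higher and 18.4% lower; the members' median log2 fold change was 0.30 against -0.04 over all genes. Aldh1a3, a synthesis gene, had 0.218, 0.218, 0.265 and 0.480 TPM at the earlier stage, against 23.8, 26.6, 20.6 and 25.8 TPM at E12.5, and rose by 6.30 on the log2 scale (SE 0.20, adjusted p = 2.2e-11 in edgeR). Aldh1a2 fell 2.61-fold, from 168, 222, 249 and 173 TPM to 91.7, 64.6, 97.0 and 72.6 (adjusted p = 1.0e-06). The receptor Rarg had 14.5, 13.2, 22.3 and 20.9 TPM and then 116, 108, 117 and 126, a 6.32-fold rise (adjusted p = 9.4e-10). Rarb moved the other way, 2.45-fold lower, from 21 to 9.04 TPM (adjusted p = 8.7e-08), with Top2b at 112 and 97.5 TPM. The Rar sum thereby went from 57.6% Rara to 60.1% Rarg.

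Aldh1a1 was also called, 9.01-fold higher, from 0.0551 to 0.305 TPM at E10.5 to 1.03 to 1.5 TPM at E12.5. Crabp1 fell 1.97-fold and Crabp2 3.55-fold between the same stages (adjusted p = 4.4e-07 and 1.9e-08 in edgeR). The summed spinal cord markers went from 710 to 1148 TPM in wt somites at E10.5 to 134 to 361 TPM at E12.5, all 6 being at 1 TPM or more at the earlier stage but 2 of 6 at the later one, and their part in these values was not tested. Stratified epithelial markers went the other way, from 14.3 to 30.7 TPM to 483 to 501 TPM, and skeletal muscle markers from 133 to 272 to 1911 to 2951 TPM. Cyp26b1, a breakdown enzyme, rose 2.50-fold, from 9.21 to 15.9 TPM to 23.3 to 32.9 TPM (adjusted p = 3.8e-06). Cyp26a1 was not called, with 8.24 to 13.5 TPM and 11.8 to 14 TPM. Rara was higher by 0.29 on the log2 scale (adjusted p = 0.033), below the fold limit. The same 8 genes were called without wt replicate 3 at E10.5.

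The 3 organs at E15.5 were compared in pairs that share libraries, so these 3 comparisons are not independent. Wt trachea and lung libraries of the same replicate number deviated together (correlations of 0.202 to 0.540 over 4 pairs), and the main tests did not use this pairing. Against lung, the wt trachea had 6 of 10 members called, all higher, where 30.2% of all genes tested were called, 20.1% higher and 10.1% lower; their median log2 fold change was 1.27 against 0.02 over all genes. Cyp26a1 had 15.4, 14.7, 6.90 and 17.5 TPM in trachea and 0.212, 0.284, 0.120 and 0.261 in lung (58.0-fold, adjusted p = 4.7e-06 in edgeR). Crabp1 was higher 14.4-fold, Aldh1a1 4.82-fold, Aldh1a3 3.09-fold, Crabp2 2.94-fold and Rarb 1.98-fold. Rarg was higher by 0.56 on the log2 scale (adjusted p = 0.0011), just below the fold limit, and was called without wt lung replicate 3. Aldh1a2 was called, as lower, when wt trachea replicate 2 was left out (log2 fold change -0.97, adjusted p = 0.0058, against -0.51 and 0.23 with it), and Cyp26b1, as higher, without wt lung replicate 3. Rara did not pass (log2 fold change 0.03, SE 0.07).

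The wt diaphragm differed from lung in 7 of 10 members, 5 higher and 2 lower, where 36.4% of all genes tested were called, 20.9% higher and 15.6% lower; their median log2 fold change was 0.53 against -0.01 over all genes. On the TPM scale the median gene had a log2 ratio of -0.30 between diaphragm and lung and of -0.31 between diaphragm and trachea, while edgeR's scaling centres it near 0, so fold changes here are relative to that shift. Rara is the member whose direction against lung depended on it, with 64.6 TPM in diaphragm and 66.0 in lung but a log2 fold change of 0.27 in edgeR (adjusted p = 0.0027), below the fold limit. Aldh1a3 had 11.5, 10.7, 11.2 and 11.5 TPM against 1.20, 1.18, 1.03 and 1.37 in lung, and was 11.6-fold higher (adjusted p = 4.9e-08 in edgeR). Cyp26a1 was 67.4-fold, Crabp1 5.31-fold and Crabp2 4.94-fold higher. Rarg had 30.5, 37.2, 35.8 and 25.4 TPM in diaphragm and 86.5, 88.0, 115 and 86.6 in lung, 2.37-fold lower (adjusted p = 3.7e-05), and Aldh1a1 was 2.26-fold lower. Aldh1a2 was 1.62-fold higher (adjusted p = 0.013) although the TPM ranges overlapped, and it dropped below the fold limit without wt diaphragm replicate 2. Cyp26b1 was called lower only without wt diaphragm replicate 4 (adjusted p = 0.046, against 0.093).

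Between diaphragm and trachea 8 of 10 members were called, 3 higher and 5 lower in diaphragm, where 32.5% of all genes tested were called, 14.1% higher and 18.4% lower; their median log2 fold change was -0.24 against -0.04 over all genes. Aldh1a1 was 11.3-fold lower (adjusted p = 2.1e-05 in edgeR), Rarg 3.59-fold, Crabp1 2.81-fold, Cyp26b1 1.89-fold and Rarb 1.58-fold lower. Aldh1a3 was 3.62-fold, Aldh1a2 2.25-fold and Crabp2 1.62-fold higher in diaphragm. The TPM ranges of Aldh1a2 and Crabp2 overlapped between these organs. Mean TPM of Crabp2 was 33.3 in diaphragm and 25.1 in trachea, a ratio of 1.33, so its passing of the fold limit depended on edgeR's scaling. Cyp26a1 was not called, with 9.08 to 14.1 TPM in diaphragm and 6.90 to 17.5 TPM in trachea, and its log2 fold change was 0.18 in edgeR (SE 0.28) while its mean TPM was the lower in diaphragm. Rara likewise had a log2 fold change of 0.20 (adjusted p = 0.037), below the fold limit, with the lower mean TPM in diaphragm. The calls of Aldh1a2, Crabp2 and Rarb did not hold in every fit with a library left out; that of Aldh1a2 was lost without trachea replicates 1 or 4 or diaphragm replicates 1 or 2 (adjusted p = 0.059 to 0.073), and those of Crabp2 without diaphragm replicate 2 and of Rarb without trachea replicate 1 fell below the fold limit.

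The loss of Hoxa5 was then examined in each context, the main question of the study. Of the 62 pairs of member and context that could be tested, edgeR called 0. The members tested were 10, 8 and 9 in trachea, lung at E12.5 and lung at E15.5, where 0.0156%, 0.0798% and 0.124% of all genes were called. They were 10 in diaphragm, where 0.594% were called, 8 and 10 in somites at E10.5 and E12.5, where 0.0215% and 0.00529% were called, and 7 in iBAT, where 0.00657% were called. An unadjusted p below 0.05 was found in 14 of the 62 pairs (22.6%), against 7.60% of all 125255 pairs of gene and context. DESeq2, the tool of the study's own differential test, called 3 of the 62 with the same filter and limits. These were Crabp2 in lung at E12.5, where it called 0.462% of all genes, and Aldh1a1 and Crabp2 in diaphragm, where it called 2.25%. Over all pairs it called 0.516%. The TPM of the 2 genotypes did not overlap in 6 of the 62 pairs, in trachea, lung at E15.5, diaphragm and somites at E10.5 and E12.5. In those contexts, in that order, 3.74%, 2.96%, 6.87%, 7.37% and 2.51% of all genes tested did not overlap. In lung at E15.5 the TPM compared include the Hoxa5-/- library rich in ribosomal RNA. In lung at E12.5 and in iBAT, where 4.09% and 0.316% of all genes tested did not overlap, all members tested overlapped. In 57 of the 62 pairs the log2 fold change was under 0.5 in size.

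**Figure D4:**
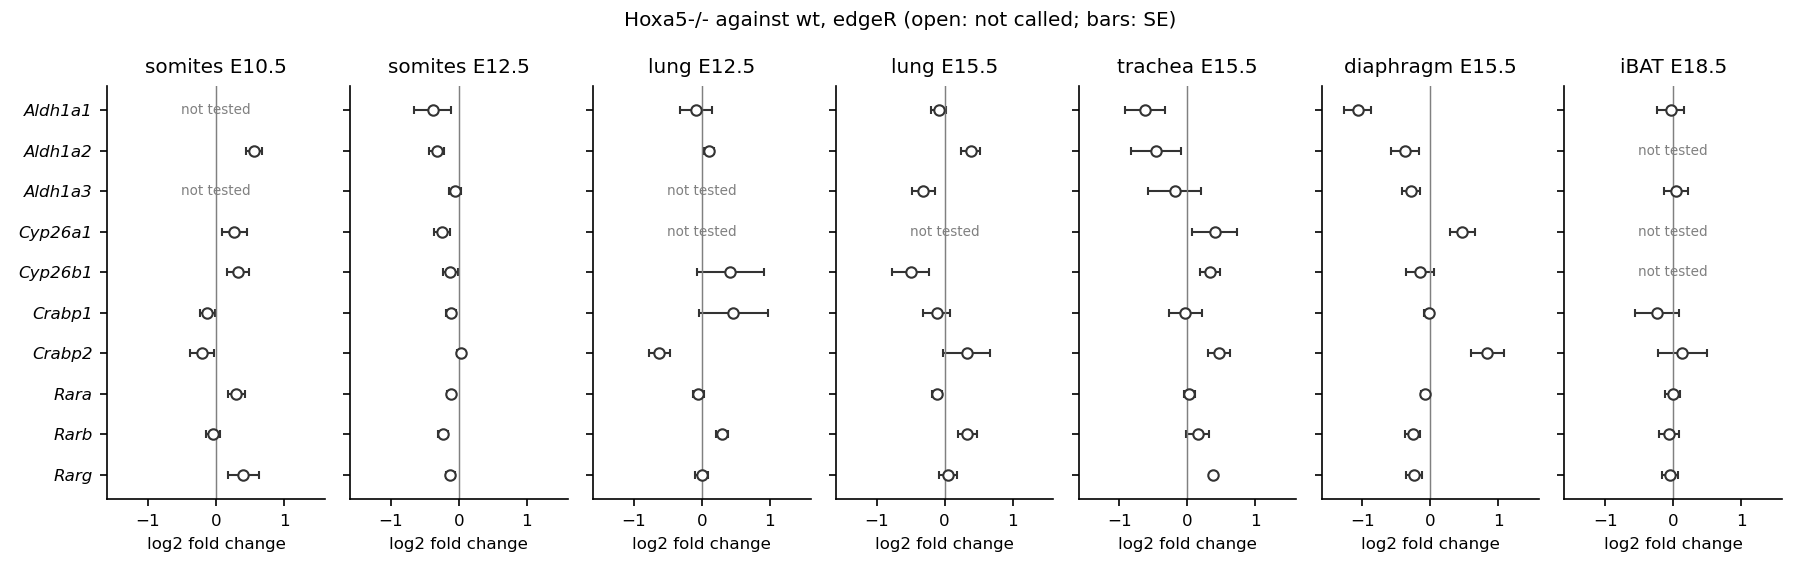
log2 fold change of each gene in Hoxa5-/- against wt, edgeR estimate with its standard error as a bar, in 7 contexts; no point is called. Aldh1a1 in diaphragm (-1.07) and Crabp2 in diaphragm (0.84) lie farthest from 0.

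In the diaphragm the members with the largest differences were a synthesis enzyme and a binding protein. Aldh1a1 had 10.3, 10.8, 8.50 and 6.97 TPM in wt and 5.0, 3.36, 3.76 and 5.36 in Hoxa5-/- libraries. The genotypes did not overlap, as in 6.87% of all genes tested there, and the log2 fold change was -1.07 (SE 0.20, adjusted p = 0.063 in edgeR and 7.1e-05 in DESeq2). Its close copy Aldh1a7 had 1.58 to 51.8 TPM in wt and 0.802 to 1.86 in Hoxa5-/- diaphragms. Other tissue moved with the genotype in these libraries: the summed visceral mesenchyme markers (Foxf1, Foxf2, Barx1, Nkx2-3) were 22.8 to 71.8 TPM in wt and 10.3 to 12.1 in Hoxa5-/-, the 6 spinal cord markers 7.97 to 22.5 and 1.18 to 2.36, the 3 limb markers 30.6 to 42.0 and 14.5 to 22.2, and the 5 lung epithelial markers 426 TPM in wt replicate 3 against 0.525 to 13.3 elsewhere. Hepatocyte genes, also present in the diaphragm, are not given by genotype here. The part of these tissues in the value of Aldh1a1 was not tested. Without wt replicate 3 or any other single library the log2 fold change of Aldh1a1 was between -1.20 and -0.94.

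Crabp2 had 26.6, 42.3, 37.0 and 27.2 TPM in wt and 45.8, 85.7, 70.0 and 38.0 in Hoxa5-/- diaphragms. The ranges met between 38.0 and 42.3 TPM, and the log2 fold change was 0.84 (SE 0.25, adjusted p = 0.20 in edgeR and 0.024 in DESeq2). The summed markers of somite derivatives were also higher in these libraries, at 60.5 to 68.4 TPM in wt and 71.0 to 86.4 in Hoxa5-/-, and their part in the values of Crabp2 and Cyp26a1 was not tested. Cyp26a1 had 14.1, 9.08, 12.7 and 13.8 TPM in wt and 20.9, 14.7, 17.1 and 16.7 in Hoxa5-/- libraries, without overlap, with a log2 fold change of 0.47 (SE 0.18, adjusted p = 0.32). Its share of the Cyp26 sum was 69.5% in wt and 77.9% in Hoxa5-/- embryos. Crabp1 lay at 85.7 to 91.1 TPM and 82.3 to 93.7 TPM, with a log2 fold change of -0.03 (SE 0.07).

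In the trachea Rarg had 148, 136, 141 and 141 TPM in wt and 181, 188, 191 and 180 in Hoxa5-/- libraries. The genotypes did not overlap, as in 3.74% of all genes tested there. The log2 fold change was 0.38 (SE 0.05), a 1.30-fold difference below the fold limit, with an adjusted p of 0.081 in edgeR and 5.0e-15 in DESeq2. Its share of the Rar sum was 64.4% in wt and 69.5% in Hoxa5-/- tracheas, without overlap. Rara, in the same libraries, had a log2 fold change of 0.03 (SE 0.08). Heart muscle markers summed to 3162 to 5715 TPM in wt and 1563 to 3084 in Hoxa5-/- tracheas, and their part in the value of Rarg was not tested. Aldh1a1 was 124, 106, 193 and 81.5 TPM in wt and 89.5, 61.7, 115 and 63.9 in Hoxa5-/- tracheas, which overlapped (log2 fold change -0.62, SE 0.29, adjusted p = 0.76 in edgeR).

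**Figure D5:**
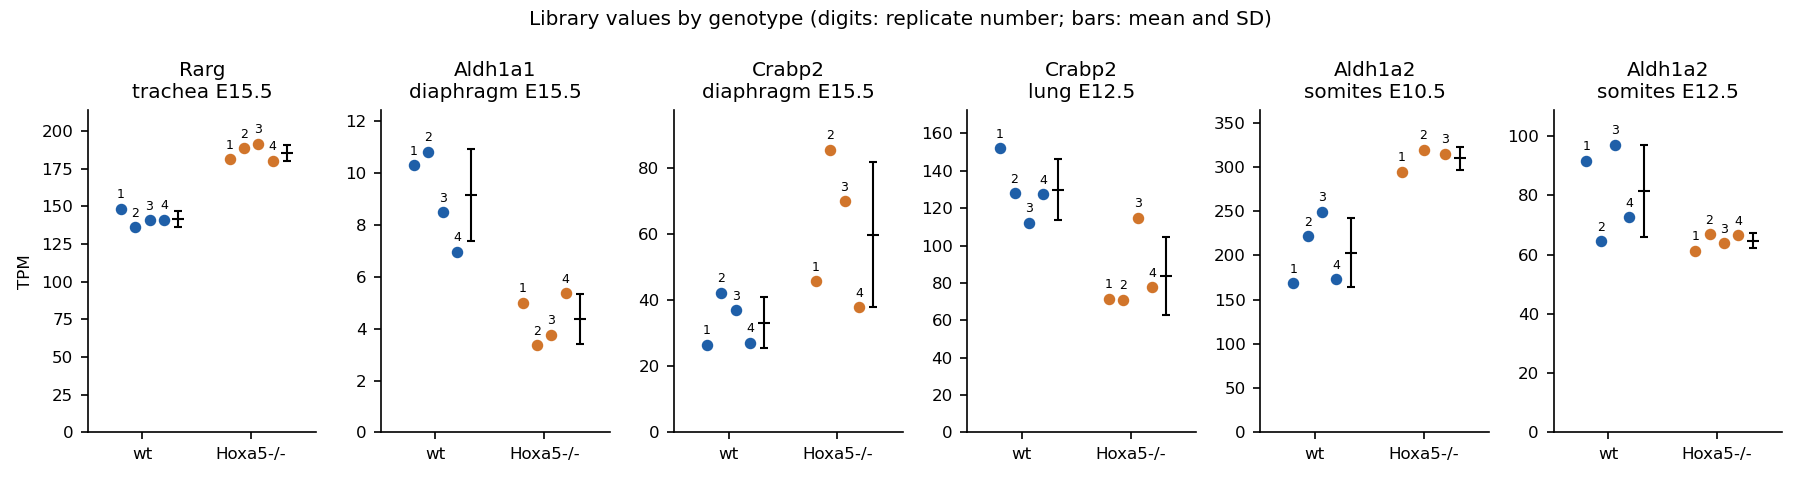
TPM of Rarg in trachea, Aldh1a1 and Crabp2 in diaphragm, Crabp2 in lung at E12.5 and Aldh1a2 in somites at E10.5 and E12.5, with 1 point per library labelled by its replicate number and the group mean and SD beside it. The genotypes do not overlap for Rarg, for Aldh1a1 in diaphragm and for Aldh1a2 at E10.5, and they do in the other 3 panels.

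In lung at E12.5 Crabp2 had 152, 128, 112 and 127 TPM in wt and 71.7, 71.1, 115 and 77.6 in Hoxa5-/- libraries. One Hoxa5-/- library, replicate 3, was within the wt range, and the log2 fold change was -0.62 (SE 0.15, adjusted p = 0.26 in edgeR and 0.0094 in DESeq2). Cartilage markers summed to 155 to 177 TPM in wt and 195 to 224 in Hoxa5-/- libraries, and stratified epithelial markers to 6.49 to 7.85 and 8.21 to 15.3 TPM, both without overlap, and their part was not tested. At E15.5 Crabp2 was 5.24 to 13.1 TPM in wt and 6.06 to 15.7 TPM in Hoxa5-/- lungs. Crabp1 at E12.5 was 53.7, 20.6, 17.9 and 20.2 TPM in wt and 19.5, 18.9, 86.7 and 28.5 in Hoxa5-/- lungs. Its highest library in each genotype was also that with the highest sum of spinal cord markers, 26.9 TPM in wt replicate 1 and 18.9 TPM in Hoxa5-/- replicate 3, against 2.0 to 9.73 TPM in the others, and their part was not tested. In lung at E15.5 Rara was 38.0 TPM in the Hoxa5-/- library rich in ribosomal RNA against 63.6 to 65.4 TPM in the other Hoxa5-/- libraries; edgeR's scaling, which adjusts for such a library, gave a log2 fold change of -0.11 (SE 0.07).

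In somites at E10.5 Aldh1a2 had 168, 222, 249 and 173 TPM in wt and 294, 319 and 315 in Hoxa5-/- libraries. The genotypes did not overlap, as in 7.37% of all genes tested there, with a log2 fold change of 0.56 (SE 0.12, adjusted p = 0.39 in edgeR and 0.039 in DESeq2), just below the fold limit. At E12.5 it was 64.6 to 97.0 TPM in wt and 61.3 to 66.8 in Hoxa5-/- somites, with a log2 fold change of -0.33 (SE 0.11). Without wt replicate 3 at E10.5, which stood apart from its group, Aldh1a2 was called (log2 fold change 0.65, adjusted p = 0.015), among 386 genes in place of 4. Rara had 45.6, 47.7, 72.8 and 48.1 TPM in wt and 65.6 to 70.3 TPM in Hoxa5-/-, wt replicate 3 being the highest of all 7. Skeletal muscle markers summed to 144, 133, 272 and 199 TPM in these wt and 246 to 333 TPM in these Hoxa5-/- libraries, which overlapped. The sums of 4 neural crest and glia markers (72.0 to 100 TPM in wt and 103 to 117 in Hoxa5-/-) and of 5 epithelial markers (48.9 to 83.3 and 83.5 to 92.5) did not overlap, and the part of these tissues was not tested. At E12.5 Rarb had 9.30, 8.88, 8.82 and 9.18 TPM in wt and 7.59, 7.76, 7.96 and 7.28 in Hoxa5-/- somites, without overlap, as in 2.51% of all genes tested there (log2 fold change -0.24, SE 0.07, adjusted p = 0.999 in edgeR). The remaining pair without overlap was Aldh1a3 in lung at E15.5, with 1.03 to 1.37 TPM in wt and 0.823 to 0.959 in Hoxa5-/- libraries, as in 2.96% of all genes tested there. Endothelial markers, at 787 to 970 TPM in wt and 411 to 723 in Hoxa5-/- lungs, did not overlap either, and their part was not tested. In iBAT the 7 members tested had log2 fold changes of -0.24 to 0.13, and 0 of them had an unadjusted p below 0.05 in edgeR or were called by DESeq2.

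Whether the genotype effect differed between stages or organs was tested with interaction terms, and edgeR called 0 members in all 5 tests, where 0.0267% of all genes were called between lung stages, 0.0147% between somite stages, 0.00502% between trachea and lung, 0.688% between diaphragm and lung and 0.439% between diaphragm and trachea. At an unadjusted p below 0.05 these tests held, in that order, 1 of 9, 7 of 10, 1 of 10, 3 of 10 and 1 of 10 members, against 5.25%, 14.3%, 5.04%, 8.46% and 9.07% of all genes tested. DESeq2 called Aldh1a2 between somite stages, where it called 0.0735% of all genes, Aldh1a1 between diaphragm and lung, where it called 1.34%, and Rarg between diaphragm and trachea, where it called 1.56%. The difference of the genotype effects was -0.89 (SE 0.17, adjusted p = 0.16 in edgeR) for Aldh1a2 from E10.5 to E12.5 in somites. For Rarg it was -0.60 (SE 0.13, adjusted p = 0.054) and for Aldh1a1 -0.98 (SE 0.24, adjusted p = 0.089). Without wt somite replicate 3 at E10.5, the test between somite stages called Aldh1a2, Cyp26a1 and Cyp26b1 (adjusted p = 0.0047, 0.043 and 0.022). Aldh1a1 was called between diaphragm and lung without wt or without Hoxa5-/- diaphragm replicate 4 (adjusted p = 0.035 and 0.048), and Rarg between diaphragm and trachea without wt diaphragm replicate 4 (adjusted p = 0.0043). The shares of all genes called in these fits with a library left out are not given here. The shares above belong to the fits with all libraries, so these calls cannot be set against them.

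The wider pathway was described by 29 other genes of retinol uptake, retinal formation, breakdown, binding, receptor partners, coregulators and targets. Between wt lung stages 15 of 25 tested were called, 4 higher and 11 lower, beside 24.6% of all genes, with Stra6, the retinol transporter, 17.3-fold lower and Adh1, a retinol dehydrogenase, 16.2-fold higher at E15.5. Rdh10, which makes retinal, fell 2.57-fold beside Aldh1a2. In wt somites 17 of 27 were called, 8 higher and 9 lower, beside 42.6% of all genes, among them Rxrg, a partner receptor, 6.01-fold higher and the target Nr2f1 4.08-fold lower at E12.5. In wt trachea against lung 10 of 26 were called, beside 30.2% of all genes, with Rdh10 2.35-fold and Stra6 3.89-fold higher and Adh1 27-fold lower. Against lung the wt diaphragm had 15 of 25 called, beside 36.4% of all genes, Rxrg being 87.8-fold and the retinol dehydrogenase gene Adh7 11.6-fold higher, and against trachea 12 of 26, beside 32.5%.

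Across all 57 libraries the patterns closest to each member among 23490 genes were found by Pearson correlation of log2(TPM + 1), given without a test because the libraries share tissues. Rara was closest to Igsf8, Traf3 and Usp11 (0.99 each), and Crabp1 to Map1b (0.98), Nsg2 and Nell2 (0.97 each). The wt means of Rara were 53.6 to 69.0 TPM outside iBAT and 11.8 in iBAT, and correlations without iBAT are not given here. Aldh1a2 was closest to Igf2bp1, Igf2bp3 and Wasf1 (0.98 each) and Crabp2 to Lrp8, Dpysl4 and Ddx25 (0.98, 0.98 and 0.97). Rarg was closest to Ugdh, Rassf8 and Matn4 (0.97, 0.97 and 0.96), Aldh1a1 to Pou2af3, Atp8b1 and 2310030G06Rik (0.96 each) and Aldh1a3 to Klf14, Ctsk and Irak3 (0.93 each). For Cyp26a1 the closest were Atcay, Dnajc6 and Serpinf1 (0.95, 0.95 and 0.94), for Cyp26b1 Bmp7, Kifap3 and Auts2 (0.95, 0.94 and 0.94) and for Rarb A830082K12Rik, Pnma8c and Psd2 (0.94, 0.93 and 0.93).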

How the data were processed

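Reads were trimmed by the authors (Trim Galore 0.6.5), aligned to GRCm39 with STAR (2.7.9a) and counted per gene with featureCounts (2.0.3). The authors curated the reference by hand for Hox genes, and the strand setting is not given in the sources used here. They deposited raw counts per gene and library and, from the same counts and exon lengths, TPM values, in separate tables for the 32 respiratory libraries (single-end, 100 bases) and the 25 somite and iBAT libraries (paired-end, 150 bases). The deposited counts summed to 20552280 to 72991481 and to 18369905 to 28234711 per library, 0 columns were left unmapped to a sample, and 0 pairs of libraries held identical counts. Intervals over libraries measure the spread between embryos only.

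Here, counts were tested with edgeR (4.0.16, R 4.3.3) quasi-likelihood fits with TMM scaling, on genes with a mean of at least 1 TPM in either group, with 1 fit per comparison and Benjamini-Hochberg adjustment over all genes tested. Genes were called at a fold change of 1.5 or more with an adjusted p under 0.05. DESeq2 (1.42.0), which the authors used for their own tests, was run as an alternative. Other alternatives were its size factors in edgeR, other filters (at least 10 counts, or none), no fold limit, a replicate block, 1 fit for the whole table and each library left out. The fits were tested on simulated data. The named genes are the 10 members in every context, up to 6 called genes of the pathway lists per comparison by smallest p, the 3 genes most like each member by Pearson correlation of log2(TPM + 1), and Hoxa5. The 10 members, the lists and the motifs were chosen with earlier results of these data known. The genotype result of the pathway lists is not reported here. Hoxb1 is named in no fold because it was near 0 in one group. Samples with the same replicate number deviated together in iBAT (correlations of 0.130 to 0.393 over 5 pairs) and in wt trachea and lung (0.202 to 0.540 over 4 pairs), all above the limit of 0.1, so the numbers were taken to pair these samples. In iBAT the sample names of replicates 4 and 5 of both genotypes begin with the same number. Between the genotypes, replicate 4 with replicate 5 had correlations of 0.155 and -0.0629. A block by that leading number was also fitted for iBAT, and its result is not given here. Python 3.11.15 (matplotlib 3.10.9, scipy 1.17.1, pandas 2.3.3, numpy 2.4.6) and limma (3.58.1) were also used.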

Additional observations from a re-analysis of the deposited data

Results flagged for a closer look

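In 15 of 130 groups of 4 or 5 libraries, 1 library of a member lay farther from the rest than the 95% critical value of Dixon's test, where chance flags about 1 in 20 groups. Crabp1 was flagged in both genotypes of lung at E12.5, at 53.7 TPM in wt replicate 1 against 17.9 to 20.6 in the others and at 86.7 TPM in Hoxa5-/- replicate 3 against 18.9 to 28.5, the 2 libraries with the highest spinal cord sums (26.9 and 18.9 TPM). Crabp2 was flagged in the same Hoxa5-/- lung replicate 3, at 115 TPM against 71.1 to 77.6. Cyp26b1 reached 45.2 TPM in Hoxa5-/- lung replicate 1 at E12.5 against 10.9 to 14.4, where erythroid markers summed to 773 TPM against 136 to 279 in the other lungs of that stage. It was also high in Hoxa5-/- lung replicate 2 at E15.5, at 10.4 TPM against 4.72 to 5.67. The part of these markers was not tested.

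In wt somite replicate 3 at E10.5, which stood apart over all genes, Rara was 72.8 TPM against 45.6 to 48.1 and Cyp26b1 15.9 TPM against 9.21 to 10.1. Rara in the Hoxa5-/- lung replicate 4 at E15.5, the library rich in ribosomal RNA, was 38.0 TPM against 63.6 to 65.4. In wt somites at E12.5 Rara was 64.0 TPM in replicate 4 against 69.4 to 69.5. Aldh1a3 was 6.59 TPM in Hoxa5-/- trachea replicate 3 against 1.96 to 2.56, and skeletal muscle markers summed to 3067 TPM and stratified epithelial markers to 784 TPM there, the highest of the Hoxa5-/- tracheas. Rarg was 115 TPM in wt lung replicate 3 at E15.5 against 86.5 to 88.0, and Aldh1a1 was 28.9 TPM in wt lung replicate 2 at E15.5 against 24.2 to 24.9. Flags at low levels were Aldh1a1 in wt somite replicate 2 at E10.5 (0.305 TPM against 0.0551 to 0.0897), Cyp26a1 in Hoxa5-/- iBAT replicate 5 (0.191 TPM against 0 to 0.0553, from 3 counts) and Crabp1 in Hoxa5-/- iBAT replicate 2 (2.34 TPM against 1.21 to 1.42).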

How the results depend on the processing

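No member turned its direction among the called values under any alternative tried. Of the counts of members called or expressed, 13 of 122 moved by more than 1.5 times under settings that kept all libraries, and the rest stayed within it. DESeq2 called 1 member for genotype in lung at E12.5 and 2 in diaphragm, where edgeR called 0 in both, and 1 member in the interaction between somite stages, between diaphragm and lung and between diaphragm and trachea. With no filter on low values, 1 member was called in the diaphragm genotype comparison (Aldh1a1, adjusted p = 0.032 in edgeR) and 1 between somite stages (Aldh1a2, adjusted p = 1.0e-09, against 0.16 with the filter). In 1 fit for the whole table, genotype had 1 member called in diaphragm (Aldh1a1, adjusted p = 0.014), and with DESeq2's size factors 1 between diaphragm and trachea (Rarg, adjusted p = 0.048). The cause was not tested in any of these. Cyp26b1 lost its call between wt diaphragm and trachea in 1 fit for the table (adjusted p = 0.053). With the replicate block, 2 members were called for genotype in diaphragm (Aldh1a1 and Crabp2, adjusted p = 0.037 and 0.013 in edgeR). It also called 1 between diaphragm and lung and 1 between diaphragm and trachea. Libraries of the 2 genotypes with the same number had correlations of -0.0523 to 0.634 in diaphragm, -0.197 to 0.680 in lung at E15.5 and -0.0940 to 0.493 in trachea. These were not all above the limit of 0.1, so the numbers were not taken to pair them. In iBAT and in wt trachea against lung, where the numbers were taken to pair, the block changed no count (0 and 6). Except for DESeq2, the shares of all genes called under these settings or with a library left out are not given here. Members expressed in all 7 contexts were 5 at 1 TPM, 7 at 0.5 TPM and 2 at 5 TPM. With 1 library left out, members called for genotype were 0 to 1 in somites at E10.5 and 0 in the other contexts. They were 0 to 3 in the interaction between somite stages, 0 to 1 between diaphragm and lung and between diaphragm and trachea, and 0 in the other interactions. In wt they were 5 to 6 between lung stages, 8 between somite stages and 6 to 8 in each organ comparison. Cyp26a1 in lung and iBAT, Aldh1a3 in lung at E12.5, and Aldh1a2 and Cyp26b1 in iBAT had means under 1 TPM in both genotypes. The same held for Aldh1a1 and Aldh1a3 in somites at E10.5. With the 1 TPM filter, genotype differences in these 8 pairs of member and context were not tested.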
